A study of Glycine max with 10 samples.

Results

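The transcripts described here stayed, in their mean over 1 and 2 short days (SDs), within a set distance of their vegetative level in the soybean shoot apical meristem (SAM). From 4 SDs onward they were higher. They were chosen by their own measured values on the array, and MADS-box probe sets were left out. A soybean probe set was taken if its highest log2 level over the 10 arrays was at least 7, its mean over the 1 and 2 SD arrays lay within 0.5 of its mean at 0 SD, its mean at 4 SD was at least 0.5 above the mean of 1 and 2 SD, both 4 SD arrays lay above every array of 0, 1 and 2 SD, and its mean at 6 SD was not below that at 4 SD. The rule found 146 of 37593 soybean probe sets. Of these, 6 belonged to MADS-box genes, which left 140 members, or 0.372% of the soybean probe sets. The same conditions with every difference turned round were met by 58 probe sets that fell.

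Plants of the cultivar Bragg were 10 days old and had grown in a glasshouse when the 0 SD meristems were taken. All other plants were moved at that age to a chamber with 10 h of light at 24 °C and were sampled after 1, 2, 4 or 6 SDs. About 70 microdissected meristems, with leaf primordia removed, were pooled for each time point, and 2 biological replicates were hybridized to the Affymetrix Soybean GeneChip. The 6 SD pools also differed in kind, since they held inflorescence and floral meristems together, and the pools of the earlier times held the apical dome alone. No meristems of older plants kept in long days were on the arrays, so the number of SDs and plant age cannot be told apart, and the change of tissue cannot be told apart from the last SDs.

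Soybean flowers when nights are long enough. A leaf that senses short days sends a signal to the apex, where the meristem stops making leaves and goes on to make an inflorescence with floral meristems. MADS-box factors are the best known genes switched on in that change. Around them, the hormones abscisic acid (ABA), gibberellin, cytokinin, auxin and brassinosteroid, and sugar signals such as trehalose 6-phosphate, are known to act on meristem identity and on the timing of flowering in Arabidopsis and other plants.

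The median soybean level of an array lay between 7.31 and 7.46, and 6 SD replicate 2 had the narrowest spread, with an interquartile range of 3.60 against 3.94 to 4.02 in the other 9 arrays. The meristem gene H1, a KNOX homeobox gene matched to SHOOT MERISTEMLESS, was well expressed in every array, at 9.71 or more. CLV1A, a receptor kinase related to CLAVATA1, stayed at 6.36 or less. The mean of 23 photosynthesis and chloroplast probe sets, which mark green leaf tissue, moved only between 9.43 and 9.61 over the time points, and none of them was a member. Single probe sets moved more and in both directions. From 0 to 6 SD an LHCB4.3 match went from 7.15 to 8.41, and ELIP from 9.88 to 8.25. The log2 difference between the 3' and 5' ends of the actin control, a sign of RNA integrity, was 0.89 and 1.14 in the 4 SD arrays and ranged from 1.00 to 1.64 at 0, 1 and 2 SD. It was 1.33 and 1.44 at 6 SD. The part of RNA integrity in the results was not tested.

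Over the members, the difference between the mean at 4 SD and the mean of 1 and 2 SD, called the 4 SD step below, had a median of 0.73 on the log2 scale, with quartiles of 0.57 and 0.92. It was at least 1 in 28 members and at least 2 in 2. These values were fixed from below by the rule and are a description. The 4 SD mean lay above that of 0 SD by a median of 0.70, by under 0.5 in 26 members and by 0.17 at the lowest. In 72 members the mean of 1 and 2 SD was below that of 0 SD, so part of their 4 SD step regained the 0 SD level. The step from 4 to 6 SD had a median of 0.49 and reached 3.94, and the whole difference from 0 to 6 SD had a median of 1.33. At 0 SD the members had a median level of 7.27, near the 7.43 over all soybean probe sets. The median was 8.99 over the probe sets bright enough to test, a set that leaves out 29 of the members. At 6 SD the members' median was 8.70. In pooled tissue such a difference can come from more cells of a type or from more RNA per cell, and these cannot be told apart.

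**Figure D1:**
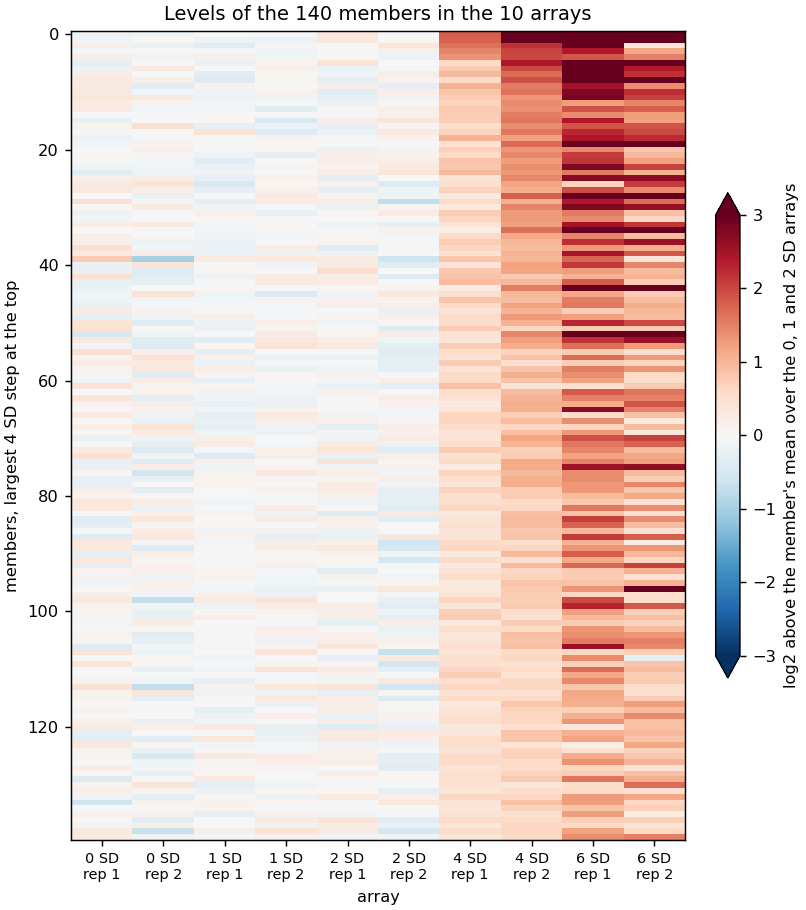
Log2 level of each of the 140 members (rows, sorted by the 4 SD step) in the 10 arrays (columns), minus the member's mean over the 6 arrays of 0, 1 and 2 SD; colours end at ±3. The early arrays are pale, the 4 SD arrays are above them by the rule, and 4 SD replicate 2 is darker than replicate 1 in most rows.

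Many members could not be named. A protein match from the study's annotation or a gene symbol was at hand for 70 members, and the other 70 are known by probe set only. The members carry 127 different cluster numbers of the array design, and 12 of these numbers hold 25 of the members, so some members read the same or a closely related transcript. For 6 of the members without annotation, another member with the same cluster number was annotated. The 36 genes to which a single gene identifier could be given lay on 17 chromosomes, and the nearest pair, LOC100779974 and MYB57, was 18 protein-coding genes apart in the RefSeq order.

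The largest 4 SD step belonged to BZIP1, also called AREB1, a bZIP factor matched to ABA-responsive element-binding proteins, which switch on ABA and drought genes. Its first probe set, GmaAffx.32011.1.S1_at, read 6.51 and 6.56 at 0 SD, 6.70 and 6.62 at 1 SD, 7.01 and 6.69 at 2 SD, 8.50 and 10.34 at 4 SD, and 11.42 and 11.14 at 6 SD. All early arrays lay together, and the 4 SD arrays lay far apart, with replicate 2 close to the 6 SD level. The 4 SD mean was 6.33-fold the mean of 1 and 2 SD, and the 6 SD mean was 26.8-fold that at 0 SD. The second BZIP1 probe set, GmaAffx.32011.2.S1_at, read between 5.43 and 6.09 in the early arrays, 6.30 and 8.12 at 4 SD, and 9.55 and 9.64 at 6 SD. Its 4 SD replicate 1 was barely above the early arrays.

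Other bZIP factors were among the members. BZIP73A or BZIP73B, which share the probe set Gma.8383.1.S1_at, read 5.25 to 5.59 in the early arrays, 6.18 and 6.41 at 4 SD, and 7.63 and 7.98 at 6 SD. For BZIP110, the probe set GmaAffx.5069.3.S1_at read 8.36 and 8.52 at 4 SD, but the 0 SD arrays alone differed by 1.77, at 8.30 and 6.53. At 6 SD its replicate 2, at 7.91, was back below the highest early array. A second BZIP110 probe set, GmaAffx.23239.1.S1_s_at, was also a member, and another, Gma.11060.1.A1_at, was not, with a 4 SD step of 0.43. Of 100 bZIP probe sets, 5 were members, and the median 4 SD step of the 58 bright enough to test was 0.01, against 0.01 over all 20366 tested probe sets. Families were counted from gene symbols and from the study's annotation of its changed transcripts, so a probe set with neither is in no list.

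The MYB list gave a like picture. MYB57, a MYB factor, had 3 probe sets on the array and all were members, with 4 SD steps of 1.02, 0.98 and 0.94. The brightest, Gma.11276.1.S1_at, read 6.69 to 7.20 in the early arrays, 7.37 and 8.41 at 4 SD, and 9.72 and 9.65 at 6 SD. The gain was thus larger from 4 to 6 SD, at 1.80. MYB138 and LOC100791423 (MYB family) were members with steps of 0.53 and 0.50. In all, 5 of 123 MYB probe sets were members, and the median step of the 52 tested ones with a MYB symbol was 0.03. None of 109 WRKY, 36 NAC and 20 ERF, DREB and AP2 probe sets was a member. Over all soybean probe sets 0.372% were members, so lists of these sizes would hold few or none. The 16 tested NAC probe sets with a symbol had a median 4 SD step of -0.46. Their median difference from 0 to 6 SD was 1.61, against -0.13 over all tested probe sets.

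The bHLH factor matched to SPATULA, which in Arabidopsis acts in carpel margin development, was represented by GmaAffx.86686.1.S1_at. It read between 6.16 and 6.95 in the early arrays, 7.22 and 8.11 at 4 SD, and 8.81 and 8.51 at 6 SD. GmaAffx.86686.2.S1_at, with the same cluster number and no annotation, had a step of 0.58. The homeobox members were H1, at 10.59 and 10.58 at 4 SD after 9.71 to 10.24 earlier, and a match to the homeobox-leucine zipper protein HB-13, at 6.89 and 6.88 after 5.91 to 6.57. The H1 means climbed at every time point, at 9.79, 9.92, 10.21, 10.59 and 11.20, so its gain began before 4 SD. A Dof factor, LOC778112, and zinc finger proteins of the MYND, RING and C2H2 kinds had steps of 0.76, 0.57, 0.56 and 0.55. The other KNOX and meristem probe sets were no members. The mean over the 5 meristem probe sets, H1 included, stood at 8.47 at 0 SD, 8.57 after 1 SD, 8.83 after 2 SD, 9.13 after 4 SD and 9.61 after 6 SD. How much of the members' steps goes with it was not tested.

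**Figure D2:**
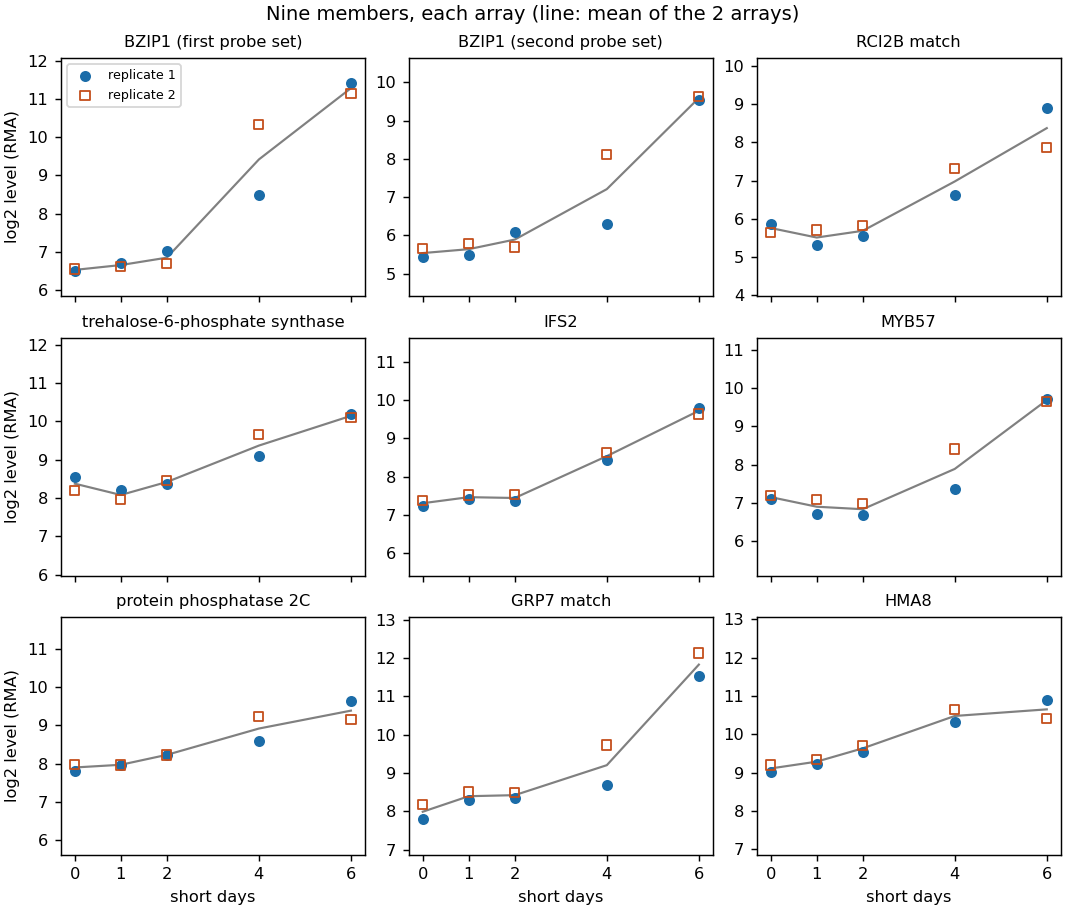
Log2 RMA level (vertical axis, the same span in each panel) against the number of short days for 9 members, with replicate 1 as filled circles, replicate 2 as open squares and the line through the mean of the 2 arrays. BZIP1, MYB57 and the GRP7 match show a wide gap between the 4 SD arrays and a further gain at 6 SD, whereas IFS2 arrays stay close at every time point.

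The ABA and stress lists gave single genes. Of 5 ABA probe sets 2 were members, both of them BZIP1. Only 2 of the 5 were found by symbol, and the others came from the study's annotation of its changed transcripts. Over all soybean probe sets, 0.372% were members. Of 67 water deficit and temperature probe sets, the 20 tested ones with a symbol had a median 4 SD step of 0.07, and 1 of the 67 was a member. That member is a match to RCI2B, also called LTI6B, a small hydrophobic membrane protein induced by cold and salt. Its probe set, Gma.6299.1.S1_at, read 5.31 to 5.87 in the early arrays, 6.63 and 7.32 at 4 SD, and 8.88 and 7.85 at 6 SD, which made the 6 SD mean 6.10-fold that at 0 SD. Gma.6299.1.S1_s_at, with the same cluster number and no annotation, had a step of 1.27. Protein phosphatases 2C, a family whose clade A members hold back ABA signalling in Arabidopsis, gave 3 annotated members, which are all the probe sets of that list, since it came from the study's annotation of its changed transcripts alone. LOC100802159 among them, matched to AT4G26080, read 7.82 to 8.24 in the early arrays, 8.60 and 9.24 at 4 SD, and 9.63 and 9.15 at 6 SD. GmaAffx.52826.2.S1_at, matched to AT3G11410, and Gma.2261.1.S1_s_at had steps of 0.85 and 0.70, and their 1 and 2 SD arrays already leaned above 0 SD. The 3 phosphatase members are not counted in the ABA list. The study's own ABA list took those of its changed transcripts whose Arabidopsis orthologues had responded to ABA in another study. It held 10 of the 53 members in the study's list of changed transcripts (18.9%), against 68 of all 331 in that list (20.5%). These shares are near each other, and the list of changed transcripts was chosen on these samples.

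Sugar and inositol metabolism gave a trehalose-6-phosphate synthase and the inositol-3-phosphate synthases. Of 20 trehalose and inositol probe sets 3 were members, and the median 4 SD step of the 11 tested ones with a symbol was -0.05. Trehalose-6-phosphate synthase makes a sugar phosphate that reports sucrose status. Its probe set GmaAffx.21003.1.S1_at read 7.95 to 8.55 in the early arrays, 9.09 and 9.65 at 4 SD, and 10.20 and 10.09 at 6 SD. GmaAffx.21003.3.S1_at and GmaAffx.21003.3.S1_x_at, with the same cluster number, had steps of 0.88 and 0.71. Inositol-3-phosphate synthase makes the first intermediate of inositol. MIPS, probe set Gma.15564.1.S1_a_at, was abundant throughout, with 11.27 to 11.89 in the early arrays, 12.00 and 12.42 at 4 SD, and 13.09 and 12.89 at 6 SD. The MIPS4 probe set gave nearly the same values, and its type of probe set can bind both transcripts. A MIPS probe set outside the members, Gma.15564.1.S1_at, had a step of 0.48.

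Hormone genes came singly. GASA3, a member of the GASA family of small cysteine-rich proteins, read 9.51 to 10.20 in the early arrays, 10.28 and 11.15 at 4 SD, and 11.64 and 11.63 at 6 SD. GA20OX3, a gibberellin 20-oxidase that makes active gibberellin precursors, was dim, at 4.77 to 5.61 early, 5.76 and 6.42 at 4 SD, and 5.92 and 7.34 at 6 SD. It was too dim to test. CKX3, a cytokinin oxidase that breaks cytokinin down, read 5.21 to 6.02 early, 6.15 and 6.64 at 4 SD, and 7.89 and 7.58 at 6 SD. BEHL1, a relative of the brassinosteroid factor BES1, had a step of 0.69, and an AUX/IAA repressor of auxin response had one of 0.53. Of 38 gibberellin probe sets 2 were members, of 23 auxin probe sets 1, of 15 brassinosteroid probe sets 1 and of 6 cytokinin and phosphorelay probe sets 1.

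Isoflavonoid synthesis gave IFS2 and IFR2. IFS2, the isoflavone synthase that starts the isoflavone branch, had the smallest gap between the 4 SD arrays, at 0.19, of the 28 members with a step of at least 1. It read 7.23 to 7.53 in the early arrays, 8.44 and 8.63 at 4 SD, and 9.80 and 9.64 at 6 SD. That its 4 SD arrays lay above the early ones was set by the rule. The probe set can bind several transcripts, and IFS1 is nearly identical to IFS2. IFR2, an isoflavone reductase, read 11.51 and 11.56 at 0 SD and dipped to between 10.99 and 11.24 at 1 and 2 SD. It read 12.02 and 11.77 at 4 SD, a mean 0.36 above 0 SD, and 12.01 and 11.92 at 6 SD, with no further gain. IFS2 and IFR2 were the only members among 78 phenylpropanoid and isoflavonoid probe sets.

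Signalling and cell wall members completed the annotated set. Calmodulin-binding proteins gave 3 probe sets, of which GmaAffx.44685.1.A1_at read 6.65 to 7.07 early, 7.11 and 7.97 at 4 SD, and 9.38 and 9.50 at 6 SD. Protein kinases gave 3 of 68 probe sets, with steps of 0.52 to 0.62. A family 9 glycosyl hydrolase, the family of plant endoglucanases, and a pectin methylesterase inhibitor had steps of 0.72 and 0.58. HMA8, a P-type ATPase that carries metal ions, had means of 9.11, 9.29 and 9.63 at 0, 1 and 2 SD, a gain that began before 4 SD. It read 10.32 and 10.64 at 4 SD, and 10.89 and 10.41 at 6 SD, so most of its gain was there at 4 SD. Of the enzymes in none of the lists, a family 1 glycosyl hydrolase (Gma.1524.1.S1_at) had a step of 1.37, and a transferase, LOC100797017, had steps of 1.21 and 0.88 in its probe sets.

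The members differed in how the change was divided between 4 and 6 SD. The share of the difference from 0 to 6 SD that was present at 4 SD had a median of 0.59, with quartiles of 0.43 and 0.77. It was at least 0.8 in 28 members and under 0.5 in 55. Only 2 of those 28 were in the study's list of changed transcripts, against 35 of those 55, and the study chose its list on these same arrays. From replicate 1 arrays alone the median share was 0.36, and from replicate 2 arrays alone 0.77, so the division rests on which replicate is read.

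**Figure D3:**
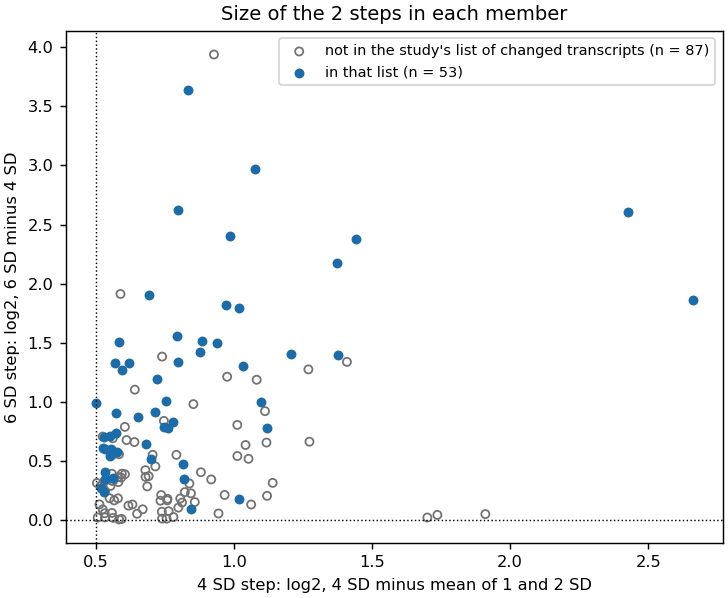
For each of the 140 members, the 4 SD step (horizontal axis, log2) against the difference between 6 and 4 SD (vertical axis, log2), with filled points for the 53 members in the study's list of changed transcripts and open points for the other 87. The rule sets the dotted limits, and the largest 6 SD steps sit mostly with filled points, with 1 open point at 3.94.

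The members that gained most after 4 SD were Gma.16974.1.S1_at, which has no annotation, and GmaAffx.5982.1.A1_at, matched to an expressed protein. The former read 3.41 to 3.61 in the early arrays, 3.68 and 5.15 at 4 SD, and 8.78 and 7.93 at 6 SD. The latter read 4.78 to 5.07, then 5.21 and 6.51, then 9.39 and 9.60. In both, 4 SD replicate 1 was just above the early arrays and replicate 2 was well above them. A match to GRP7, a glycine-rich RNA-binding protein that in Arabidopsis is tied to the clock and to flowering time, read 7.80 to 8.50 early, 8.68 and 9.73 at 4 SD, and 11.53 and 12.14 at 6 SD. At the other end LOC100804839 read 7.80 to 8.18 early, 9.32 and 9.97 at 4 SD, and 9.85 and 9.48 at 6 SD, with its full change present at 4 SD.

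The rule used both 4 SD arrays but set no limit on the gap between them, which is given as a description. Replicate 2 lay above replicate 1 in 123 of 140 members (87.9%), with a median difference of 0.42. Among the other 20255 probe sets tested it was higher in 55.7%, with a median of 0.03. The deposited values had been normalized to a common distribution, so a shift shared by most probe sets would not show in these values. At 0, 1 and 2 SD the members' median differences were -0.07, 0.08 and -0.07. The 6 MADS-box probe sets left out showed the same order in 6 of 6, with a median gap of 1.39. The rising transcripts of the study's list that are neither members nor among those 6 showed it in 158 of 179 (88.3%), with a median of 0.25, whereas its falling transcripts had replicate 2 above in 35 of 93 (37.6%). These are no independent readings, since the MADS-box probe sets met the same rule and the study chose its list on the same arrays.

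On a scale from 0 at the mean of 1 and 2 SD to 100 at the mean of 6 SD, the median member stood at 46.4 in 4 SD replicate 1 and at 70.9 in replicate 2. For the 6 MADS-box probe sets these places were 45.9 and 71.1. Over the members, the 4 SD gap and the difference between 6 and 4 SD had a Pearson r of 0.70 and a Spearman rho of 0.51 (n = 140), given as a description since the members share arrays and both measures contain the 4 SD arrays. What set the 4 SD arrays apart was not tested.

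At 6 SD the order was the opposite, with replicate 2 above replicate 1 in 35 of 140 members (25.0%) and a median difference of -0.30. Here the other tested probe sets leaned the same way, with 32.1% and a median of -0.16. The rule placed the 6 SD mean above every early array, so the next count is largely set by it. No like count was made over all probe sets. Both 6 SD arrays lay above all early arrays in 136 members. The exceptions were BZIP110 (GmaAffx.5069.3.S1_at), GmaAffx.87539.1.S1_at, GmaAffx.30262.1.A1_at and GmaAffx.58014.2.S1_at. In Gma.5971.1.S1_at, the member with the third largest 4 SD step, 6 SD replicate 1 read 8.54 and replicate 2 only 5.36, next to an early maximum of 5.33.

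**Figure D4:**
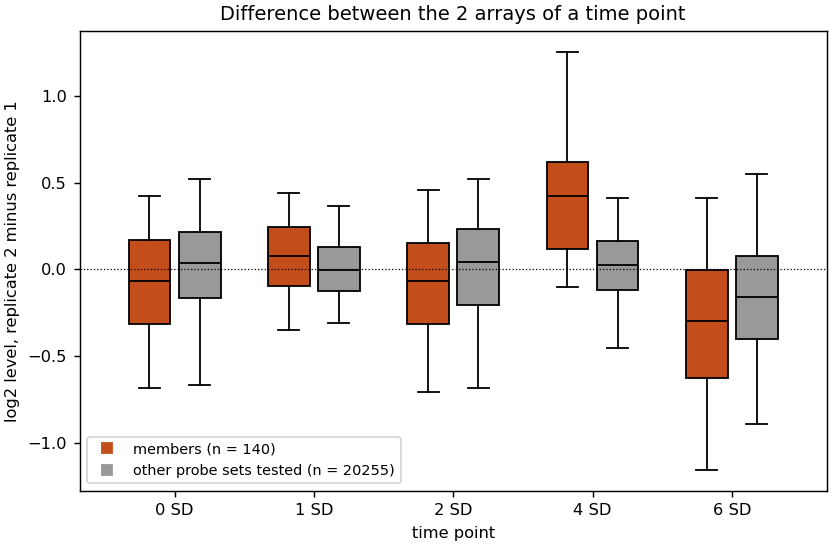
Log2 level in replicate 2 minus replicate 1 at each time point for the 140 members (orange) and the 20255 other probe sets tested (grey); boxes span the quartiles, black lines are medians and whiskers reach the 5th and 95th percentiles. At 4 SD the members' box lies above 0, with a median of 0.42, while the grey box is centred near 0.

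The rule set no difference between 2 SD and 1 SD, but it held their mean near 0 SD and placed all their arrays below both 4 SD arrays, which keeps out probe sets with a large change between them. The members' counts in this contrast are therefore a description. In limma's moderated test, with Benjamini-Hochberg adjustment over the 20366 probe sets tested, 0 of the 111 members bright enough to test were called, where 0% of all tested probe sets were called higher and 0% lower. At an unadjusted p under 0.05 limma gave 91 probe sets higher and 74 lower, with 0 members among them. Over all 140 members the differences ran from -0.53 to 0.50, with a median of -0.01. The standard error of a tested member's difference had a median of 0.24, and even the lowest of these differences, in Gma.3303.2.S1_at (SE 0.26), was not called.

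For the steps the rule did use, limma's counts are given only as a description. In 4 SD against the mean of 1 and 2 SD, 1 of 111 tested members, IFS2, passed (log2 difference 1.08, SE 0.12, adjusted p = 0.044), where 0.0295% of all tested probe sets were called higher. The call was lost in 13 of 15 alternatives, among them leaving out any 1 of the arrays. In 6 SD against 4 SD, 9 of 111 members were called higher, where 0.412% of all tested probe sets were. Besides IFS2, they were GmaAffx.71645.1.S1_at, Gma.8318.1.A1_at, Gma.16974.1.S1_at, the BZIP73A or BZIP73B probe set, GmaAffx.5982.1.A1_at, the GRP7 match, the calmodulin-binding GmaAffx.44685.1.A1_at and LOC100791423. Of the 111 tested members, 28 were bright enough only with their 6 SD arrays counted, and so were 5 of these 9, so the share of members called is not read against the background. In Gma.8318.1.A1_at, Gma.16974.1.S1_at, the BZIP73A or BZIP73B probe set and GmaAffx.5982.1.A1_at, no array before 6 SD was above the array's median. With no filter on brightness, 13 of the 140 members were called, where 179 of all 37593 soybean probe sets were called higher. The count of 9 fell to 0 without 6 SD replicate 2, to 1 without 4 SD replicate 1 and to 1 without either 1 SD array, to 3 without either 2 SD array, and rose to 14 without 4 SD replicate 2 or 6 SD replicate 1 and to 18 when all arrays were set to a common median.

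Other probe sets of the members' genes were not chosen by the rule themselves, but their genes were, on the same arrays. They can read the same transcript as the member, so their counts are a description and no independent reading. For the 36 genes with a single identifier there were 17 such probe sets, and 16 of them were higher at 4 SD than at 1 and 2 SD, against 48.7% of all soybean probe sets. At 6 SD 15 of the 17 were above 0 SD, against 46.4%. A wider set was the 121 other probe sets that carry a cluster number of a member, which can also read related transcripts. The step was above 0 in 71 of them (58.7%), with a median of only 0.07. Among the 17, MYB138 was clearest at 4 SD, since its second probe set, GmaAffx.63449.2.S1_at, read 7.64 to 8.50 early and 9.29 and 9.26 at 4 SD. At 6 SD it read 9.70 and 8.76, so replicate 2 was below both 4 SD arrays. For IFR2, GmaAffx.93511.1.S1_s_at had a step of 1.12, with 10.73 and 10.21 at 4 SD. It was lower at 6 SD, at 10.55 and 9.99. The second BEHL1 probe set stayed at 3.96 or less in every array. For LOC548026 the other probe sets had steps of 0.10 and 0.41, and the second of these was not above 0 SD at 4 SD.

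The members nearest the limits of the rule were close to probe sets it left out. LOC100791423 entered with a 4 SD step of 0.50036 and LOC100101868, at 0.495, stayed out, as did a bHLH match, GmaAffx.42856.1.S1_at, at 0.495. A Dof factor, DOF6, missed the tolerance at 0 SD with a difference of 0.510, and GA20OX3 entered with 0.490. Gma.10716.3.S1_at entered with a highest level of 7.04, and GmaAffx.42595.1.A1_at stayed out with 6.94. All other conditions were met by 265 probe sets with a smaller 4 SD step, by 24 dimmer ones and by 13 whose early mean moved from 0 SD.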

How the data were processed

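Total RNA of microdissected soybean meristems was hybridized to 10 Affymetrix Soybean GeneChip arrays, 2 for each of 0, 1, 2, 4 and 6 SDs. The authors deposited RMA values on the log2 scale, for which each array had been background-corrected and quantile-normalized and its probes summarized into probe sets. RMA pulls the arrays to a common distribution, so a change shared by most transcripts would not be seen. The table holds 37746 entries, of which 105 Affymetrix controls and 48 rRNA probe sets were left out of all tests. It has no genome build, so no coordinates are given. Their number, 2 arrays a time point, limits the precision.

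The rule was applied to the deposited values as they are. Members and gene lists were chosen with earlier results of these data known. Differences were fitted with limma 3.58.1 in R 4.3.3 on the means of the 5 time points, with 5 residual degrees of freedom. A probe set was tested if it lay above the array's median in at least 2 arrays (20366). Of the members 111 were tested and 29 were too dim. Adjustment over all tested probe sets followed Benjamini and Hochberg, with a threshold of 0.05, and the fit was checked on simulated arrays. Alternatives were another scaling, other limits of the rule, no filter, an intensity trend with a robust prior, the replicate number as a block, and leaving out each array.

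Gene symbols came from the platform annotation, which gave 8677 probe sets 1 symbol, 370 several and 28546 none. The gene IDs of 8652 were found in RefSeq (Glycine_max_v4.0). Protein matches came from the study's annotation of its 331 changed transcripts. Members were named from among the annotated ones with the 15 largest 4 SD steps, or with the 5 largest and 5 smallest steps from 4 to 6 SD. Up to 4 of each list, and those called by limma or nearest a limit of the rule, were added. Some that met these conditions, among them SGR2, LOC100801492 and LOC100037476, were not described. The probe sets Gma.5971.1.S1_at, Gma.16974.1.S1_at, GmaAffx.87539.1.S1_at, GmaAffx.30262.1.A1_at, GmaAffx.58014.2.S1_at and Gma.3303.2.S1_at, and those named for sharing a cluster number with a named member, were named after their values were seen.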

Additional observations from a re-analysis of the deposited data

How the results depend on the processing

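The rule gave 142 members after a repeated quantile normalization, 124 of them among the 140, and 142 after setting a common median, 123 of them shared. With a minimum step of 1 it gave 28. A highest level of at least 8 gave 103 members, one of at least 6 gave 159, and a tolerance of 0.25 gave 95. Leaving out 1 array at a time gave 104 to 300 members. The highest came without 4 SD replicate 1, where 328 met the conditions, of which the rule keeps the 300 with the largest 4 SD step, and 106 of the 140 were kept, and the lowest without 4 SD replicate 2, with 81 kept. The median share of the change reached at 4 SD was 0.45 to 0.69 when 1 array was left out.

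For 2 SD against 1 SD, all alternatives gave 0 calls in all and among members. For 6 SD against 4 SD, 100 calls in all became 202 with no filter and 174 with a common median, and the 9 members became 18 with a common median. Leaving out 1 array gave 0 to 2107 calls in all and 0 to 14 among members, with 2107 without 6 SD replicate 1 and 0 without 6 SD replicate 2. For 4 SD against the mean of 1 and 2 SD, 7 calls in all became 11 with a common median and 3 with the trend and robust prior. The member count of 1 became 0 with no filter, 2 with a common median and 0 with the trend and robust prior. Leaving out 1 array gave 0 to 14 calls in all and 0 to 6 among members, the highest of both without 4 SD replicate 1. The cause was not tested. With 1 array left at a time point, that array is taken to vary like the others. The median 6 SD minus 4 SD difference of all tested probe sets was -0.11 as deposited and -0.02 with a common median, and that of the members 0.49 and 0.58.

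Arrays with equal replicate numbers deviated together at some time points and not at others. The correlation was above 0.1 in 6 of 10 pairs of time points, which are all pairs among 0, 2, 4 and 6 SD (0.19 to 0.62), and below 0 in every pair with 1 SD (-0.37 to -0.07). The labels name no shared batch, so the block was kept as an alternative. With the replicate block, 6 SD against 4 SD gave 272 calls in all and 17 among members, 4 SD against the mean of 1 and 2 SD gave 6 and 0, and 2 SD against 1 SD gave 0.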
